A study of Macaca mulatta with 9 samples.

Results

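The genes described here are those of DNA repair and of the DNA polymerases, as the rhesus macaque ovary expresses them at 3 ages. Members were chosen by gene symbol alone. They are the symbols that start with FANC, those in which RAD, XRCC, ERCC, BRCA, MSH, MLH, RPA, RFC, PARP or LIG is followed by a digit, the DNA polymerase symbols POLA, POLB, POLD, POLE, POLH, POLI, POLK, POLL, POLM, POLN and POLQ, and BARD1 and PCNA. RAD21, a subunit of cohesin, was left out. The rule found 73 of the 14132 genes that the array annotation names, and each gene is represented by its brightest probe set. The rule also took in ERCC6L, RAD21L1 and FANCD2OS, which match by symbol but are not known as repair genes, and they are kept apart below.

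Ovarian RNA from 9 female rhesus monkeys was measured on 9 single-channel arrays, 1 monkey per array. There were 3 monkeys in each of 3 age groups, young animals of 3 to 4 years that cycled but had not been bred, fertile middle-aged animals of 7 to 8 years, and old animals of 18 to 19 years that no longer reproduced. All animals were housed alike, only part of 1 ovary per monkey was used, and the young and middle-aged ovaries were taken at about proestrus, so that cycle stage and age cannot be told apart in comparisons with the old group. Values are RMA intensities on a linear scale, which ran from 3.14 to 26458 over all arrays with array medians between 24.3 and 25.9, and the small number of arrays limits the precision of every estimate.

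DNA repair works through several pathways that deal with different lesions. Homologous recombination copies an intact sister DNA molecule to mend breaks across both strands, and the Fanconi anaemia proteins open up crosslinks between the strands and hand them on to it. Mismatch repair and nucleotide excision repair cut out replication errors and bulky lesions, and the polymerases, the sliding clamp and the clamp loader make new DNA in repair as they do in replication. In the ovary these genes serve both the dividing somatic cells of the follicle and the oocyte, which rests for years with its recombined chromosomes. Inherited defects in several of them are known to shorten reproductive life.

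Most of the 73 genes had a lower mean in old than in young ovaries, but no single gene passed the test. The log2 fold change of old against young was negative for 54 of the 73 genes and for 50.6 percent of named genes, with a median of -0.31 beside -0.00 over all 14132 named genes, and it ran from -1.75 for BARD1 to 0.90 for PARP3. By limma, a call needed a Benjamini-Hochberg adjusted p below 0.05, taken over all 52766 probe sets, and a fold of 1.5 or more. None of the 73 genes was called in either direction, where 0.262 percent of all named genes were called lower and 0.0283 percent higher. The smallest adjusted p was 0.0633, for BARD1. SAM, a permutation method, called 1 of the 73 genes, again BARD1, and 366 of all 52766 probe sets.

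At an unadjusted p under 0.05, 28 of the 73 genes, or 38.4 percent, were lower in old ovaries and 2 were higher. The background was 12 percent of named genes lower and 6.81 percent higher. In 25 genes every old ovary lay below every young ovary, which held for 13.8 percent of named genes, and in 2 genes every old ovary lay above, which held for 7.78 percent. The count of 28 depended on the ovary young 2, since 17 genes, or 23.3 percent, were lower at that level without it, beside 8.38 percent of named genes. The cumulative plot of fold changes shows the genes to the left of the named genes along most of its length.

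**Figure D1:**
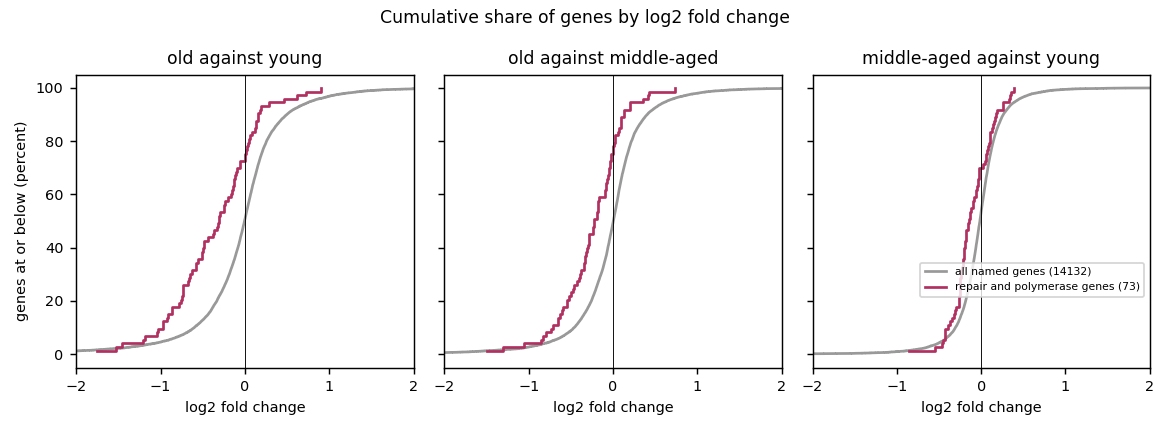
Cumulative share of genes (percent) by log2 fold change for old against young, old against middle-aged and middle-aged against young ovaries, with the 73 repair and polymerase genes in red and all 14132 named genes in grey. The red line crosses 0 after 54, 57 and 51 of its 73 genes, whereas the median of the named genes lies at about 0 in each panel.

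Whole ovary is a mixture of cells, and in such bulk RNA fewer cells of a type and less RNA per cell cannot be told apart. In sections of these ovaries, the paper counted far fewer follicles in the old group than in both younger groups. The 9 measured markers of dividing cells all had negative estimates for old against young ovaries, with a median log2 fold change of -2.47, and AURKA, a mitotic kinase, fell by 2.88 on the log2 scale (limma, adjusted p = 0.0142). The summed intensity of these 9 markers was 2598 to 7558 in young ovaries, 1764 to 4602 in middle-aged ovaries and 541 to 1232 in old ovaries, and none had an old mean under the first quartile of the arrays. The 11 measured oocyte markers had a median log2 fold change of -2.87, 10 of them with negative estimates, and limma called 5 of them lower, which were ZP3, FIGLA, NLRP5, OOEP and ZAR1. The exception was ZP4, with a log2 fold change of 0.83 (limma, adjusted p = 0.17) and every old value above all younger ones. The summed intensity of the 11 markers was 2302 to 7266 in young ovaries, 1381 to 5223 in middle-aged ovaries and 411 to 579 in old ovaries, where BMP15, NLRP5, DAZL and LHX8 had means under the first quartile. The 6 endothelial markers all had positive estimates with a median of 1.55 and none was called, but the ovary old 2 did not share in this, since its median relative to each gene's mean was -0.52, whereas that of old 3 was 1.47 and that of old 1 was likewise above 0. Their summed intensity was 1809 to 2403 in young, 2403 to 5016 in middle-aged and 2339 to 9941 in old ovaries. Of the 6 surface epithelium markers none was called, 4 were lower at an unadjusted p under 0.05 and the median was -1.43, with summed intensities of 2773 to 4698 in young, 1683 to 2468 in middle-aged and 1143 to 1836 in old ovaries. For cells that make steroids, the 3 measured markers had positive estimates, none called, with a median of 1.31, and their sums were 982 to 3861 in young, 984 to 5102 in middle-aged and 5913 to 24103 in old ovaries. Medians over the other lists were 0.46 for 6 granulosa cell, 0.43 for 5 interferon-induced, 0.20 for 5 leukocyte, 1.06 for 3 smooth muscle and pericyte and -0.09 for 5 stromal fibroblast genes, with none called. The granulosa cell estimates went both ways, 3 negative and 3 positive. AMH and HSD17B1 had log2 fold changes of -3.88 and -3.17, and INHA and INHBA of 2.67 and 1.89. The smooth muscle and pericyte median was -0.28 against middle-aged ovaries. Relative to each gene's mean it was -0.96, -0.31 and 1.51 in old 1, old 2 and old 3. The part of these shifts in the values of the repair genes was not tested.

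**Figure D2:**
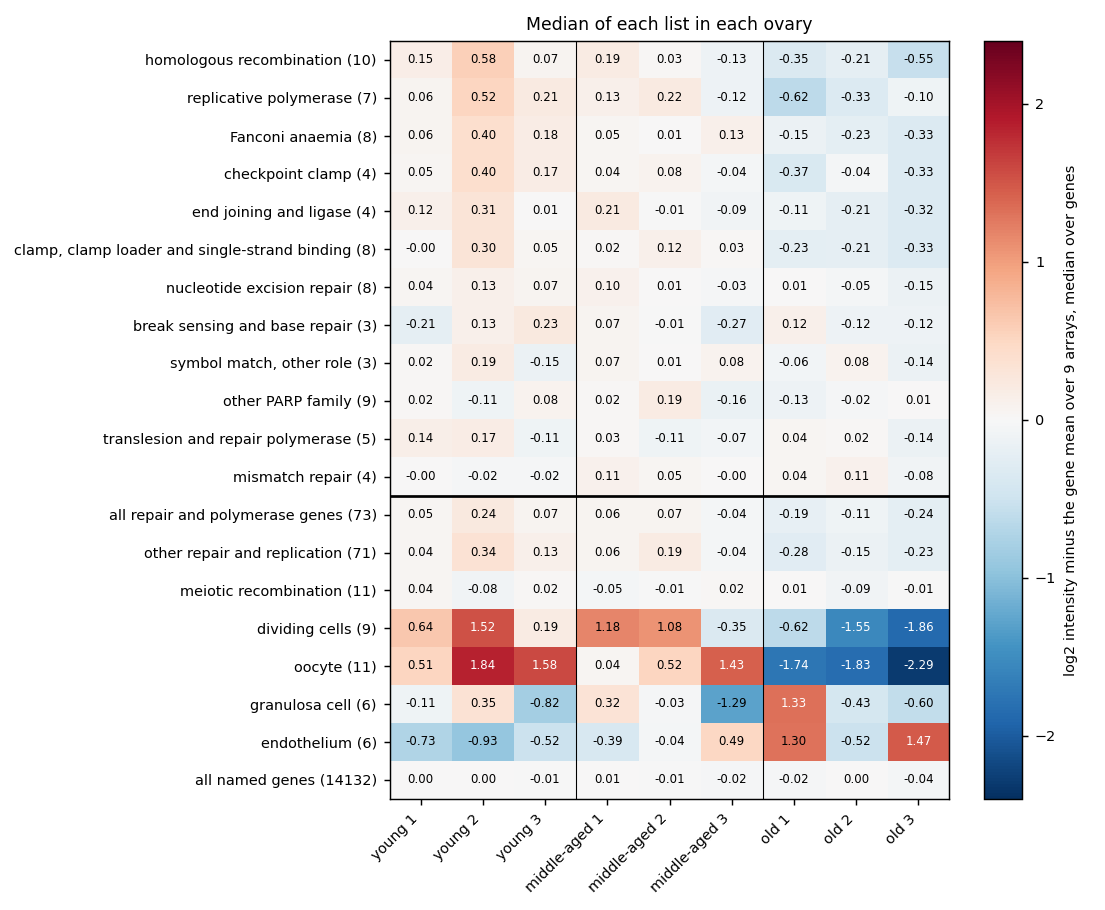
Median over genes of the log2 intensity, expressed as the distance from each gene's 9-array mean, for each role of the repair and polymerase genes above the black line and for all 73 genes, other lists and all named genes below it, with 1 column per ovary and the number of genes in brackets. The old ovaries have medians of -0.35, -0.21 and -0.55 for homologous recombination and of -0.62, -1.55 and -1.86 for markers of dividing cells, whereas the highest repair values lie in the ovary young 2.

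Homologous recombination held the largest differences, with 6 of its 10 genes lower at an unadjusted p under 0.05 and a median log2 fold change of -0.71 for old against young ovaries. BARD1, the partner of BRCA1 in a ubiquitin ligase that acts at broken DNA, had intensities of 157, 310.4 and 219 in the young ovaries, 168, 189.7 and 199.9 in the middle-aged ovaries and 81.8, 49.8 and 68.3 in the old ovaries. Every old value therefore lay below all 6 others, while the young and middle-aged values overlapped. The old mean was 3.37-fold below the young mean, a log2 fold change of -1.75 with a standard error of 0.26 and a 95% interval from -2.36 to -1.15. Its adjusted p by limma was 0.0633 against young, 0.244 against middle-aged and 0.0542 against the other 6 ovaries together, so BARD1 missed the threshold in all of them. It was the gene nearest to the threshold, and it passed in 3 alternatives of the comparison with young ovaries.

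RAD51AP1, which stimulates strand invasion, had intensities of 98.2, 265 and 75.6 in the young, 109, 174 and 65.9 in the middle-aged and 65.7, 38.3 and 32.6 in the old ovaries. The old values lay below the others, by a narrow gap in the case of middle-aged 3 and old 1, and the young values were spread widely. Its log2 fold change of -1.53 thus had a standard error of 0.52 (limma, adjusted p = 0.271). RAD54L, a motor protein that helps to pair the strands, had intensities of 35.8, 65 and 32.2 in the young, 45.9, 46.4 and 25.2 in the middle-aged and 19.3, 20.3 and 15.3 in the old ovaries. All old values were below the rest, at a level under the array medians. The log2 fold change of RAD54L was -1.21 with a standard error of 0.32 (limma, adjusted p = 0.176), and that of its relative RAD54B was -0.75 (limma, adjusted p = 0.287).

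RAD51C, which acts in an early step of recombination and again in its resolution, had intensities of 136, 212 and 199 in the young, 99.1, 107 and 174 in the middle-aged and 92.9, 89.7 and 91 in the old ovaries. The 3 old values were close to one another and below all others, and 2 of the middle-aged values lay nearer to the old than to the young ones. The log2 fold change of old against young was -0.97 with a standard error of 0.24 (limma, adjusted p = 0.158). A second probe set of RAD51C gave -0.94. BRCA1, the scaffold of the BARD1 complex, had intensities of 30.6, 34.8 and 32 in the young, 27, 24.2 and 21.4 in the middle-aged and 26.4, 23.4 and 19.1 in the old ovaries. Middle-aged and old values overlapped and both lay below the young values, which differs from the order seen for BARD1. BRCA1 was dim, however, with an old mean of 23 under the lowest array median of 24.3. The log2 fold change was -0.51 for old against young (limma, adjusted p = 0.209) and -0.08 for old against middle-aged.

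The other recombination genes showed smaller or less certain differences. RAD54L2, which was counted in this role, had a log2 fold change of -0.13 with a 95% interval from -0.50 to 0.24. RAD51B, which works in a complex with RAD51C, had a log2 fold change of -0.66 with a 95% interval from -1.35 to 0.03, and its intensity of 147 in young 3 stood apart from 62.9 and 85.3 in the other young ovaries. BRCA2, a mediator of strand exchange, averaged 8.05 ± 1.49 (SD, n = 3) in the young group and 6.39 ± 0.234 (SD, n = 3) in the old group, under the first quartile of the arrays, where a fold change has little to rest on. XRCC3, another partner of RAD51C, had a log2 fold change of 0.03 with a 95% interval from -0.31 to 0.37, which leaves out a decrease of 1.5-fold. The plot of single genes by role shows that the recombination genes spread from BARD1 at the far left of the range to XRCC3 at about 0.

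**Figure D3:**
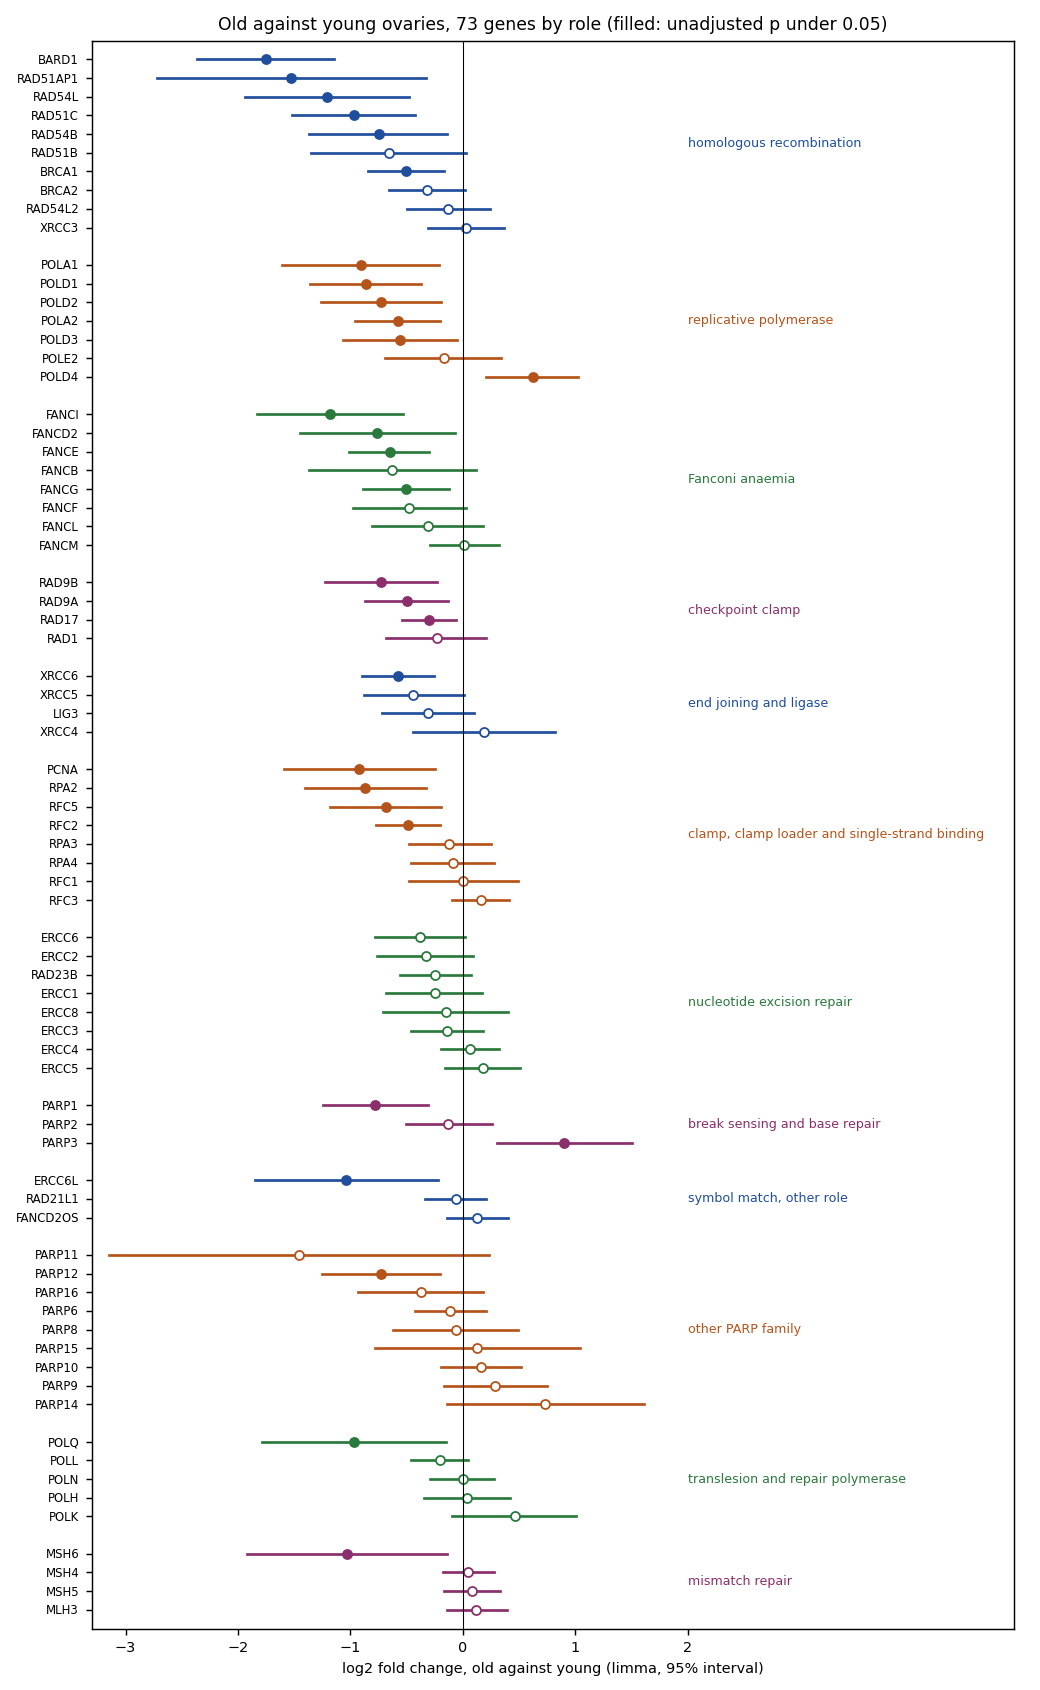
Log2 fold change of old against young ovaries with its 95% interval by limma for each of the 73 genes, ordered by role, with filled points for an unadjusted p under 0.05. BARD1 at -1.75 lies farthest to the left, PARP3 at 0.90 lies farthest to the right, and no filled point appears among the 8 genes of nucleotide excision repair.

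Among the Fanconi anaemia genes, 4 of 8 were lower in old than in young ovaries at an unadjusted p under 0.05, with a median log2 fold change of -0.57. FANCI, which with FANCD2 forms the clamp that marks a crosslink, had intensities of 141, 243 and 131 in the young, 143, 110.2 and 139 in the middle-aged and 92.3, 79.5 and 52.5 in the old ovaries. No old value reached any of the others, and young 2 was the highest. FANCI had a log2 fold change of -1.18 with a standard error of 0.28 (limma, adjusted p = 0.152), and its other probe sets gave -1.33 and -0.36. FANCE, the subunit of the core complex that contacts FANCD2, had intensities of 154, 179 and 158 in the young, 184, 149.6 and 143 in the middle-aged and 86.2, 114 and 114 in the old ovaries. Here young and middle-aged values were alike and the old values lay apart from both. Its log2 fold change was -0.65 against young (limma, adjusted p = 0.149) and -0.60 against middle-aged (limma, adjusted p = 0.421).

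FANCD2 itself was dimmer, at 26, 45.7 and 22.6 in the young, 28.3, 25.6 and 28.3 in the middle-aged and 25.8, 14.1 and 15.2 in the old ovaries, and old 1 overlapped with the other groups. Its log2 fold change of -0.76 had a 95% interval from -1.45 to -0.07. FANCG, a scaffold of the core complex, had intensities of 86.1, 116 and 126 in the young, 80.3, 83 and 72.5 in the middle-aged and 87.5, 76.2 and 66.1 in the old ovaries. Its lower level was reached in middle age, with log2 fold changes of -0.46 for middle-aged against young and -0.04 for old against middle-aged. FANCL, the ubiquitin ligase of the pathway, had a log2 fold change of -0.31 for old against young ovaries, and FANCM, the DNA translocase that recruits the core complex, had one of 0.01 with a 95% interval from -0.29 to 0.32. FANCF had a log2 fold change of -0.48 with a 95% interval from -0.98 to 0.03 by its brightest probe set. A probe set of nearly equal brightness gave -0.67 with an unadjusted p of 0.000711 by limma (adjusted p = 0.105).

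The checkpoint clamp, which is loaded at damaged DNA to start the signal that halts the cell cycle, had 3 of 4 genes lower at an unadjusted p under 0.05 for old against young ovaries. RAD17, which loads it, had intensities of 188, 193 and 212 in the young, 190.1, 196 and 222 in the middle-aged and 161, 166 and 153 in the old ovaries. The difference was small but the groups were tight, and all old values lay below the other 6. Old against young, the log2 fold change was -0.30 with a standard error of 0.11 (limma, adjusted p = 0.279). For the clamp subunits RAD9A, RAD9B and RAD1 the log2 fold changes were -0.50, -0.73 and -0.23, with RAD9B near the first quartile of the arrays.

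The replicative polymerases had 5 of 7 genes on the lower and 1 on the higher side at an unadjusted p under 0.05 for old against young ovaries, with a median log2 fold change of -0.58. POLD1, the catalytic subunit of polymerase delta, had intensities of 119, 202 and 128 in the young, 132, 118 and 91.7 in the middle-aged and 83.3, 80.5 and 76 in the old ovaries. The old values lay within a narrow range below all others. The log2 fold change was -0.86 with a standard error of 0.22 (limma, adjusted p = 0.161). POLA1, the catalytic subunit of the polymerase that begins each new strand, had intensities of 128, 232 and 129 in the young, 125, 152 and 116 in the middle-aged and 55.5, 94.9 and 109 in the old ovaries. Again no old value overlapped, and the log2 fold change was -0.91 (limma, adjusted p = 0.262).

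The accessory subunits did not all lie in the same direction. For POLA2, POLD2 and POLD3 the log2 fold changes of old against young were -0.58, -0.73 and -0.56, with adjusted p-values by limma of 0.205, 0.247 and 0.329. POLD4, the smallest subunit of polymerase delta, had intensities of 171, 186 and 148 in the young, 222, 171 and 186 in the middle-aged and 323, 238 and 220 in the old ovaries. Its old values lay above every young value, whereas those of POLD1 and POLD2 lay below every young value. POLD4 had a log2 fold change of 0.62 with a 95% interval from 0.21 to 1.02 (limma, adjusted p = 0.205), and a further probe set gave 0.62 as well. POLE2, a subunit of polymerase epsilon, was among the brightest genes of the set, at 966, 1366 and 1871 in the old ovaries, and its log2 fold change was -0.17 with a 95% interval from -0.69 to 0.34. A second, dimmer probe set of POLE2 with a mean intensity of 77.05 gave -0.62 with an unadjusted p of 0.186 by limma.

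**Figure D4:**
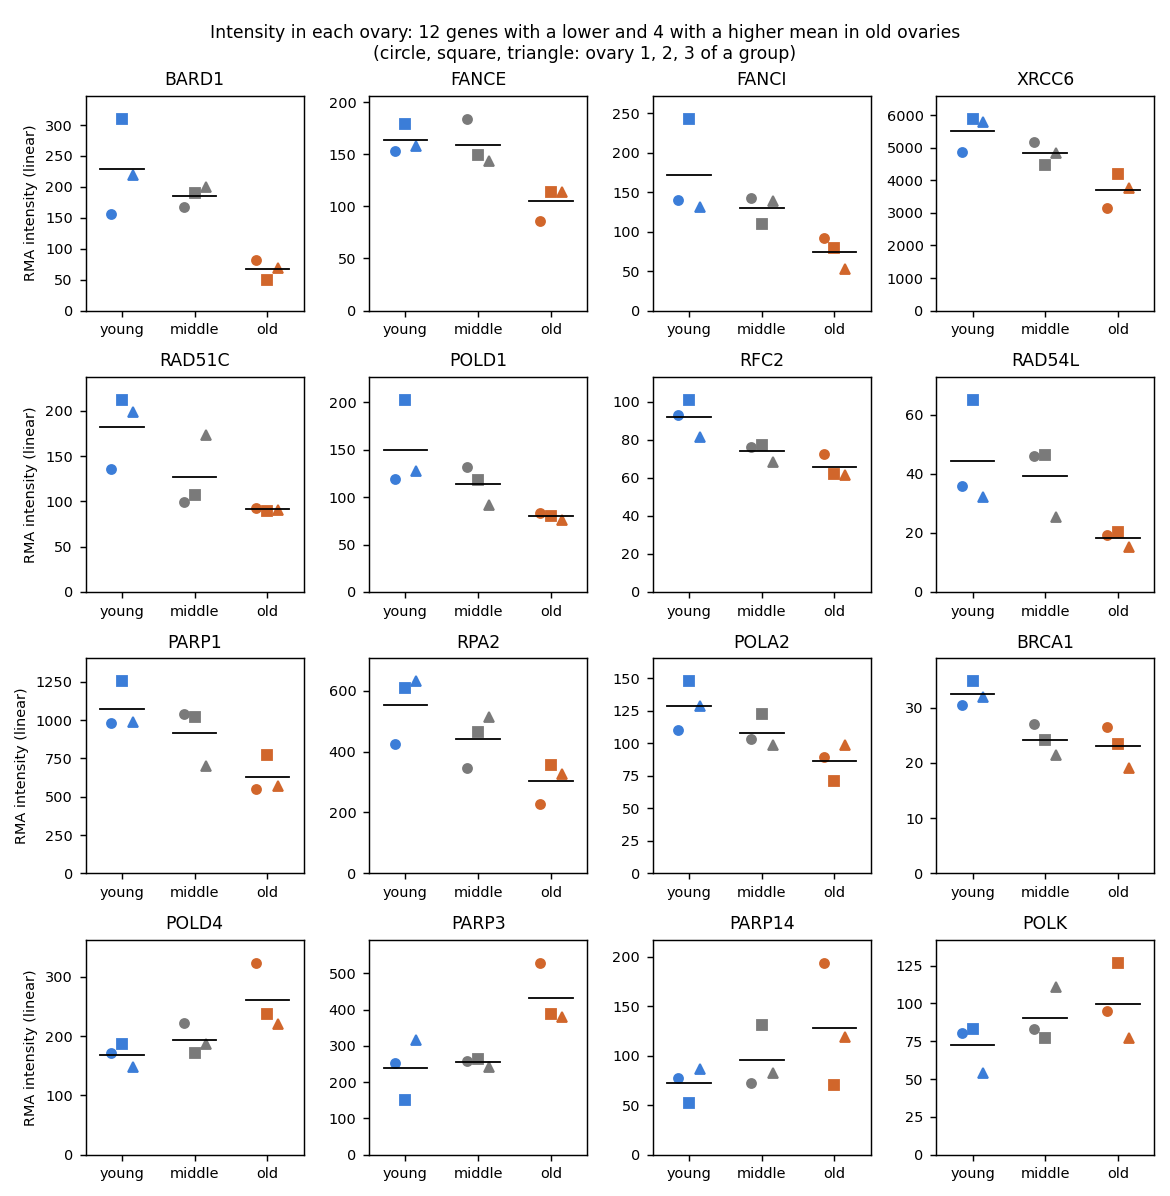
RMA intensity on a linear scale in each of the 9 ovaries for the 12 genes with a lower mean and the 4 genes with a higher mean in old than in young ovaries that had the smallest unadjusted p, with a bar at the mean of each group. The old points of BARD1 lie between 49.8 and 81.8 and every other point at or above 157, whereas old and young points overlap for PARP14 and POLK.

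PCNA, the sliding clamp that holds polymerases on DNA, had intensities of 1471, 2521 and 1747 in the young, 1316, 2317 and 1383 in the middle-aged and 1141, 1140 and 738 in the old ovaries. All old values lay below the others, and old 3 was the lowest. PCNA had a log2 fold change of -0.92 with a standard error of 0.29 (limma, adjusted p = 0.239). RPA2, a subunit of the protein that coats exposed DNA strands, had intensities of 424, 607 and 630.5 in the young, 348, 464 and 515 in the middle-aged and 229, 357 and 326 in the old ovaries. Old and young values did not overlap, whereas old 2 exceeded middle-aged 1. Old against young, the log2 fold change was -0.87 with a standard error of 0.23 (limma, adjusted p = 0.185), and its other probe set gave -0.83.

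The clamp loader subunits were not alike. RFC2 and RFC5 had log2 fold changes of -0.49 and -0.68 for old against young ovaries (limma, adjusted p = 0.167 and 0.239), and in both genes every old ovary lay below every young one. RFC1, the large subunit, and RFC3 had log2 fold changes of 0.00 and 0.16, with 95% intervals from -0.48 to 0.49 and from -0.10 to 0.41. The interval of RFC3 leaves out a decrease of the size estimated for RFC2. RPA3, of the strand-coating protein, averaged 884 ± 57.7 (SD, n = 3) in the young group and 819.8 ± 116 (SD, n = 3) in the old group, with an estimate of -0.12 on the log2 scale.

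In end joining, XRCC6 and XRCC5 encode the ring that captures broken ends. XRCC6 was the brightest gene of the set, with intensities of 4859, 5894 and 5781 in the young, 5168, 4467 and 4835 in the middle-aged and 3153, 4190 and 3749 in the old ovaries. The groups of old and younger ovaries did not overlap, though the difference was no more than 1.5-fold. Its log2 fold change was -0.58 with a standard error of 0.14 (limma, adjusted p = 0.152). XRCC5 had a log2 fold change of -0.44 with a 95% interval from -0.88 to 0.01. Its other probe set gave -0.51 with an unadjusted p of 0.0111 by limma (adjusted p = 0.229). LIG3, a DNA ligase, had one of -0.31, and XRCC4, the partner of the end-joining ligase, one of 0.19 with a 95% interval from -0.44 to 0.82.

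The PARP genes lay on both sides of 0. PARP1, the main sensor of DNA breaks, had intensities of 980.3, 1253 and 990.5 in the young, 1037, 1021 and 699 in the middle-aged and 549.6, 775 and 569 in the old ovaries. Its old values lay below all young values but old 2 exceeded middle-aged 3. The log2 fold change was -0.78 with a standard error of 0.20 (limma, adjusted p = 0.177). PARP3, which acts in the joining of broken ends, had intensities of 252, 149.7 and 318 in the young, 259, 265 and 242 in the middle-aged and 529, 388 and 379 in the old ovaries. It was the only one of the 73 genes in which every old value lay above the other 6. Its log2 fold change was 0.90 against young, with a 95% interval from 0.30 to 1.5 (limma, adjusted p = 0.209), and 0.74 against middle-aged (limma, adjusted p = 0.565).

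PARP2, the close relative of PARP1, had a log2 fold change of -0.13 with a 95% interval from -0.51 to 0.26. The 9 other PARP family genes, several of which act outside repair, had a median of -0.06, with 5 negative and 4 positive estimates. PARP12, an interferon-induced member, had intensities of 277, 492 and 299 in the young, 267, 284 and 212 in the middle-aged and 241, 193 and 193 in the old ovaries and a log2 fold change of -0.73 (limma, adjusted p = 0.237). PARP14 differed from it in sign, with a log2 fold change of 0.73 and a 95% interval from -0.14 to 1.61. PARP11 had the widest interval of the set, from -3.15 to 0.23, and its young intensities were 40.8, 77.8 and 8.53.

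The medians of mismatch repair, nucleotide excision repair and the translesion and repair polymerases lay closer to 0, at 0.07, -0.20 and -0.00. MSH6, which recognises single mismatches, had the largest difference in mismatch repair, with intensities of 1004, 1521 and 853 in the young, 1257, 1011 and 696 in the middle-aged and 387, 962 and 409 in the old ovaries. The old ovaries were not alike, since old 2 lay within the range of the younger ovaries while old 1 and old 3 lay below it. MSH6 had a log2 fold change of -1.03 with a standard error of 0.39 (limma, adjusted p = 0.31), and its other probe set gave -0.91. MLH3, MSH4 and MSH5, which act in meiotic crossing over, had log2 fold changes of 0.12, 0.05 and 0.08, but MSH4 and MSH5 were dim, with young means of 5.79 ± 0.178 (SD, n = 3) and 11.6 ± 0.624 (SD, n = 3). The mismatch repair median of 0.07 therefore describes these genes more than MSH6.

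None of the 8 genes of nucleotide excision repair reached an unadjusted p under 0.05 for old against young ovaries by its brightest probe set, while 1 of the 4 mismatch repair genes and 1 of the 5 polymerases did. The estimates ran from -0.38 for ERCC6, which frees stalled RNA polymerase, to 0.18 for ERCC5, a nuclease that cuts beside the lesion. RAD23B, which helps to recognise lesions, was bright at 1309, 1387 and 1356 in the young and 1339, 1079 and 1023 in the old ovaries, and its log2 fold change of -0.25 had a 95% interval from -0.56 to 0.07. A second bright probe set of RAD23B gave -0.30 with an unadjusted p of 0.013 by limma (adjusted p = 0.239). ERCC3, a helicase that opens the DNA, had one of -0.14 with a 95% interval from -0.46 to 0.18. The intervals of RAD23B and ERCC3 leave out a change of 1.5-fold or more in either direction.

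Of the 5 translesion and repair polymerases, POLQ, which joins ends through short stretches of matching sequence, had intensities of 41.5, 68.8 and 32.9 in the young, 49.1, 50 and 23.2 in the middle-aged and 27.2, 19.1 and 24.1 in the old ovaries. Old and young values did not overlap, but middle-aged 3 lay among the old ones. Old against young, the log2 fold change was -0.97 (limma, adjusted p = 0.3). POLH, which copies past ultraviolet lesions, POLN and POLL had log2 fold changes of 0.04, -0.00 and -0.20, and POLK, which copies past bulky adducts, had one of 0.46 with a 95% interval from -0.10 to 1.01. Of the genes that matched by symbol alone, ERCC6L, a motor that resolves DNA bridges between separating chromosomes, had intensities of 36.1, 79.5 and 29.4 in the young and 20.3, 22.5 and 21.5 in the old ovaries and a log2 fold change of -1.04 (limma, adjusted p = 0.274). RAD21L1, a meiotic cohesin subunit, was the dimmest gene of the set, with a young mean of 4.64 ± 0.414 (SD, n = 3), and its log2 fold change was -0.06.

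Against middle-aged ovaries, old ovaries also had negative estimates for most of the genes, 57 of 73 beside 49.4 percent of named genes, with a median log2 fold change of -0.23 beside 0.00 over all named genes. This comparison uses the same old arrays as that with young ovaries, so the results of the 2 are not independent. No gene was called by limma or by SAM, where limma called 0.0708 percent of named genes lower and 0 percent higher. SAM called 48 of all 52766 probe sets in this comparison. At an unadjusted p under 0.05, 14 genes, or 19.2 percent, were lower and 2 were higher, beside 7.61 percent and 3.67 percent of named genes. Among the 14 were ERCC6 and RPA3, whose unadjusted p against young ovaries was 0.0613 and 0.491 by limma. The count was 7 without middle-aged 1, 6 without middle-aged 2 and 9 without old 3, where 5.68, 5.34 and 7.18 percent of named genes were lower at that level.

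In recombination and crosslink repair, BARD1 had a log2 fold change of -1.5, RAD51AP1 of -1.31, RAD54L of -1.05 and FANCI of -0.83. The difference was -0.65 for RFC5, -0.71 for PCNA, -0.54 for RPA2 and -0.54 for PARP1, and the higher ones were 0.74 for PARP3 and 0.42 for POLD4. In 15 genes every old ovary lay below every middle-aged ovary, which held for 9.22 percent of named genes, and in 2 genes, PARP3 and POLN, every old ovary lay above, which held for 5.55 percent.

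Between middle-aged and young ovaries the estimates were smaller. They were negative for 51 of the 73 genes, beside 53.6 percent of named genes, with a median log2 fold change of -0.14 beside -0.01 over all named genes, and the median was -0.00 without young 2 and -0.03 without middle-aged 3. No gene was called by limma or SAM, and limma called 0 percent of named genes in either direction. Of all 52766 probe sets, SAM called 1. At an unadjusted p under 0.05, 3 genes, or 4.11 percent, were lower and none was higher, beside 1.88 percent and 1.42 percent of named genes. They were BRCA1 with a log2 fold change of -0.43, FANCG with -0.46 and RFC2 with -0.31, and in all of them every middle-aged ovary lay below every young one. Such a gap was found in 4 of the 73 genes, beside 4.51 percent of named genes, and the opposite gap in 1, MLH3, beside 4.87 percent. RFC2, a subunit of the clamp loader, had intensities of 93, 101 and 81.5 in the young, 76.3, 77.5 and 68.4 in the middle-aged and 72.7, 62.2 and 61.6 in the old ovaries, so middle-aged and old values overlapped. For 63 of the 73 genes the 95% interval of this comparison lay within 1 either side of 0 on the log2 scale.

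Set against the other 6 ovaries together, the old ovaries had no gene called by limma while 0.234 percent of named genes were called lower and 0 percent higher. SAM called 2 of the 73 genes, BARD1 and FANCE, and 363 of all 52766 probe sets. At an unadjusted p under 0.05, 30 genes, or 41.1 percent, were lower and 2 were higher, beside 11.9 percent and 6.72 percent of named genes. Estimates were negative for 55 of the 73 genes, beside 49.7 percent of named genes. In 14 genes all 3 old ovaries lay below all 6 others, which held for 6.98 percent of named genes, and in 1, PARP3, they lay above, which held for 2.75 percent. These were BARD1, RAD51AP1, RAD51C and RAD54L of recombination, FANCE and FANCI, POLA1, POLA2 and POLD1, the clamp genes PCNA, RFC5 and RAD17, and XRCC6 and ERCC6L.

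The group means stood in the order young, middle-aged, old from high to low in 43 genes, or 58.9 percent, beside 26.4 percent of named genes. The reverse order was found in 8 genes, or 11 percent, beside 23.4 percent, and these were ERCC5, MLH3, PARP3, PARP10, PARP14, POLD4, POLK and RFC3. Single ovaries also left a mark. The ovary young 2 had the highest of the 9 values in 32 genes, or 43.8 percent, whereas it had the highest value in 12.6 percent of named genes. Its median over the 73 genes, relative to each gene's mean, was 0.24, beside 0.05 in young 1 and 0.07 in young 3. Young 2 also had the highest median of the dividing-cell markers, at 1.52 beside 0.64 and 0.19. The same held for the oocyte markers, at 1.84 beside 0.51 and 1.58. The lowest value was in old 1 for 20 genes, in old 3 for 17 and in old 2 for 11, which were 27.4, 23.3 and 15.1 percent of the 73 genes beside 21.2, 17.1 and 7.24 percent of named genes. Within young ovaries the median standard deviation of log2 intensity was 0.262 over the 73 genes and 0.193 over named genes.

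The brightness of a probe set bore on what could be measured. Of the 73 genes, 12 had a mean under the lowest array median of 24.3, and 2 of these were lower at an unadjusted p under 0.05 for old against young ovaries. The other 61 genes had 26 lower and 2 higher and a median log2 fold change of -0.33. Of all 14132 named genes, 1692 were lower at that p. The 10683 named genes at or above the same brightness held 1521 of these, or 14.2 percent of the 10683. Of the 34 genes with several probe sets, 25 had estimates with no opposite signs and 9 had both signs. In 8 of these 9 every probe set with the opposite sign was under the array medians, as for POLD1, where the brighter set gave -0.86 and a set with a mean intensity of 13.4 gave 0.27. XRCC6 had estimates of -0.58, -0.42 and -1.0 at mean intensities of 4678, 1575 and 578.3, and of 0.23 at 6.94.

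**Figure D5:**
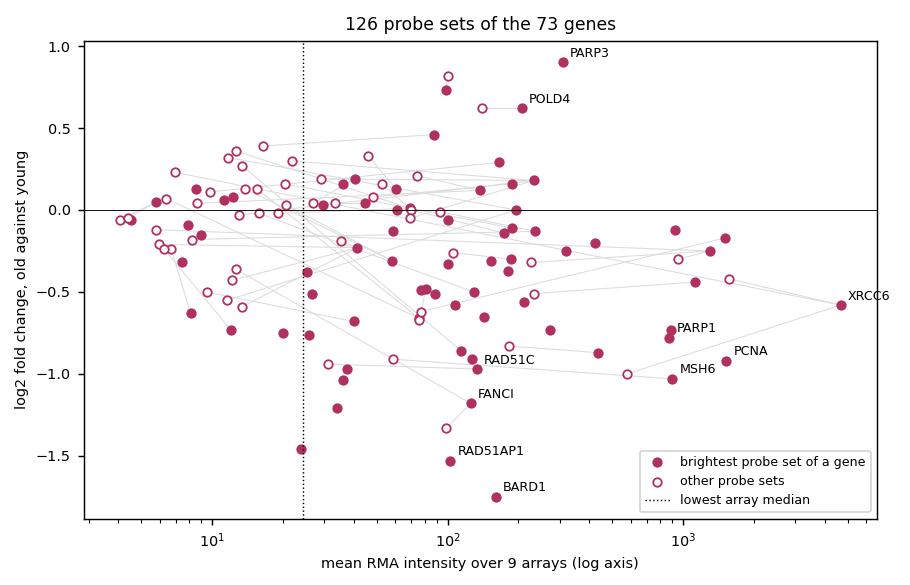
Log2 fold change of old against young ovaries against the mean RMA intensity over the 9 arrays (log axis) for the 126 probe sets of the 73 genes, with filled points for the brightest probe set of each gene, open points for the others, grey lines between probe sets of the same gene and a dotted line at the lowest array median of 24.3. Left of the line the 40 probe sets have a median of -0.04, and right of it the 86 others have a median of -0.31.

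Other genes of repair and replication that the symbol rule does not reach were listed as well, and 71 of the 96 listed were measured. Their median log2 fold change for old against young ovaries was -0.38. Estimates were negative for 57 and positive for 14, beside 50.6 percent negative among named genes. Limma called 1 lower and none higher, beside 0.262 percent and 0.0283 percent of named genes. An unadjusted p under 0.05 was reached by 31 on the lower and 2 on the higher side, beside 12 percent and 6.81 percent. The gene that fell was MCM3, a subunit of the replicative helicase, with intensities of 430.6, 955 and 650.8 in the young, 446, 595 and 412.5 in the middle-aged and 150, 154 and 111 in the old ovaries. Its old values lay far below the rest, a log2 fold change of -2.24 (limma, adjusted p = 0.0394). The call was lost when any 1 of young 2, young 3, middle-aged 1, middle-aged 2, middle-aged 3, old 1 or old 3 was left out, and it was kept without young 1 and without old 2.

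The next genes by p were GINS2, another part of the replicative helicase, RMI2, a partner of the BLM helicase, CHEK1, a kinase that slows the cell cycle when replication stalls, and MCM5, also of the helicase. Old against young, their log2 fold changes were -3.37, -2.30, -2.10 and -1.70, with adjusted p-values by limma of 0.0549, 0.063, 0.074 and 0.0922. GINS2 had intensities of 390.4, 902 and 1178 in the young, 315, 354 and 891 in the middle-aged and 75.2, 82.5 and 60.8 in the old ovaries. All old values of GINS2 were lower than any other, as for MCM3. In the other direction, DCLRE1C, the nuclease known as Artemis that trims ends before they are joined, had intensities of 179, 92.1 and 147.5 in the young, 184, 171 and 72.1 in the middle-aged and 3111, 1685 and 343 in the old ovaries. Its old values lay above all others but were spread over a wide range, with a log2 fold change of 3.18 (limma, adjusted p = 0.147), and without old 3 it was called higher.

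In the ovary, meiotic recombination takes place in the oocyte alone. Of 15 listed genes, 11 were measured and none was called by limma for old against young ovaries. At an unadjusted p under 0.05, 4 were lower and 1 was higher, beside 12 percent and 6.81 percent of named genes. The median log2 fold change over the 11 genes was -0.00. DMC1, SPO11, SYCP1, HORMAD1 and SMC1B had means under the first quartile of the arrays in all 3 groups. STAG3, a meiotic cohesin subunit, had intensities of 136, 249 and 412.5 in the young, 127, 120 and 216 in the middle-aged and 55, 69.2 and 101.5 in the old ovaries. No old value of STAG3 reached a younger one, and its log2 fold change was -1.72 (limma, adjusted p = 0.155). SYCP3, of the axis between paired chromosomes, and MEIOB, which binds exposed DNA strands in meiosis, had log2 fold changes of -1.70 and -1.26 (limma, adjusted p = 0.298 and 0.122).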

How the data were processed

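Each of 9 rhesus monkeys gave ovarian RNA for 1 array, and groups of 3 were taken from the sample labels. Per the labels, the authors made the deposited intensity values with RMA, version not given in the sources used here. Per the methods section, LOWESS normalization with dye reversal was used, which belongs to 2-channel slides, so the labels were followed. The file held 52865 probe sets of linear intensity. The 99 control probe sets were left out, and 52766 remained for testing as log2 values, with no filter and no added normalization. The array annotation gave 1 symbol to 24956 probe sets, several to 361 and none to 27449, and where a gene had several probe sets the one brightest on average was used. No genome build or sequence was used.

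The fit was made with limma 3.58.1 under R 4.3.3 over all 9 arrays, a mean for each age group, Benjamini-Hochberg adjustment over all probe sets tested, and a call at adjusted p under 0.05 with a fold of at least 1.5. SAM was run over 20 labelings of 3 against 3 arrays and 84 of 3 against 6, at a q limit of 5 percent. The fits were tested on simulated data. The members and the gene lists were chosen with earlier results of these data known. Genes were named by role: those with the smallest p in each comparison, the lowest and highest of each role, those in the study's tables, the brightest and dimmest and those whose probe sets differ in sign, with marker lists of dividing cells, oocytes and other ovarian cells. Alternatives were centred or quantile-normalized arrays, brighter probe sets alone, a variance trend with a robust prior, only the groups compared, SAM, no fold minimum, averaged probe sets, a replicate block, and leaving out each array or the 3 arrays numbered 3. Counts at an unadjusted p under 0.05 under the alternatives were added after seeing the data.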

Additional observations from a re-analysis of the deposited data

How the results depend on the processing

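None of the 73 genes was called in old against middle-aged or middle-aged against young ovaries under any alternative run. Of all probe sets tested, 1 to 48 and 0 to 1 were called in these comparisons under the alternatives. Against young ovaries, 1 of the 73 genes was called with brighter probe sets alone (BARD1, adjusted p = 0.0475 by limma), with SAM (BARD1, q = 0.046) and with a replicate block (RPA2, adjusted p = 0.0423 by limma), and 0 to 1 when each array was left out, 1 being BARD1 without young 1 (limma, adjusted p = 0.0421). Of all probe sets tested, 97, 366, 229 and 106 were called in these settings in turn, beside 82 in the main fit. When each array was left out, 4 to 198 were called. Against the other 6 ovaries, quantile normalization, brighter probe sets, a variance trend and averaged probe sets each called 1, BARD1, SAM called 2, a replicate block called 1, RPA2, and leaving out each array called 0 to 1. Over everything tested, the calls in these settings were 75, 147, 97, 64, 363, 206 and 31 to 205, beside 61 in the main fit. Adjusted p for BARD1 under the alternatives that called it ran from 0.0354 to 0.0492 by limma. Among the 71 other repair and replication genes, 1 was called against young ovaries, and the count was 3 with brighter probe sets, 2 with a variance trend, 0 with only the groups compared, 5 with SAM, 3 with a replicate block, 0 without the arrays numbered 3, and 0 to 3 when each array was left out. Of all probe sets, 68 were called with a variance trend, 27 with only the groups compared and 2 without the arrays numbered 3. The median log2 fold change of middle-aged against young ovaries ran from -0.20 to -0.00 when each array was left out. The genes lower at an unadjusted p under 0.05 by limma numbered 28 against young ovaries and 17 to 30 when each array was left out. Of named genes, 12 percent and 8.38 to 12.4 percent were lower at that level. Against middle-aged ovaries the genes numbered 14, 6 to 17 when each array was left out and 8 without the arrays numbered 3. The shares of named genes were 7.61, 5.34 to 8.53 and 6.40 percent. With the replicate block the counts were 31 against young and 19 against middle-aged ovaries, beside 13.7 and 8.99 percent of named genes. Deviations from the group means correlated above 0.1 in 5 of 9 same-numbered pairs of arrays, among them all pairs of the arrays numbered 3 (r from 0.25 to 0.41), and down to -0.02 in the others, so the numbers were not taken to pair the animals. Centring or quantile normalization moved the median of all probe sets to at most 0.047 and left 53 of 73 estimates negative against young ovaries. The cause of these shifts was not tested. With 3 arrays per group the median interval against young ovaries reached 0.45 either side of the estimate on the log2 scale, which limits what could be resolved in a typical gene, and for dim genes signal over background was not given.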
